A study of Mus musculus with 6 samples.

Results

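The genes described here encode the constitutive proteasome of the mouse submandibular gland and were chosen by name. Of the 24394 gene entries with a usable symbol, 36 had a whole symbol of Psma, Psmb, Psmc or Psmd followed by digits, once the immunoproteasome subunits Psmb8, Psmb9 and Psmb10 were left out. The rule uses no measured value. All 36 are annotated as protein coding, and 34 averaged 1 FPKM or more over the 6 libraries and were tested. Expression was measured by RNA sequencing of total RNA and deposited as FPKM, fragments scaled to the length of the gene model and to the size of the library, so levels can be compared between genes of different length. Glands came from wild type C57BL/6 mice, with 2 libraries from glands without irradiation (control), 2 from glands taken 6 h after 5 Gy and 2 from glands taken 24 h after 5 Gy. The labels name no transgene and do not tell whether each library is its own animal. The p-values therefore cover the spread between these libraries only, which may be technical. In whole tissue, fewer cells of a type and less RNA per cell cannot be told apart. The control libraries are labelled T0, and no unirradiated gland at 6 h or 24 h is among the 6 libraries. Irradiation and time since T0 can therefore not be told apart.

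The proteasome degrades proteins that carry ubiquitin chains. Its barrel, the 20S core, has outer alpha rings that gate entry and inner beta rings that hold the proteolytic sites, and a 19S regulatory particle caps it. The base of that cap holds a ring of ATPases that unfolds the substrate and threads it into the core, and its lid removes the ubiquitin. Secretory cells such as those of salivary glands use it to degrade misfolded proteins withdrawn from the endoplasmic reticulum, and when proteasome activity falls the transcription factor NRF1 (gene Nfe2l1) raises subunit genes in a coordinated way through antioxidant response elements in their promoters.

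The 34 genes tested were 14 of the 20S core (7 of the alpha ring, 4 structural and 3 catalytic genes of the beta ring), 17 of the 19S particle (6 ATPases, 3 other subunits of the base and 8 of the lid) and 3 chaperones of 19S assembly, Psmd5, Psmd9 and Psmd10, which carry a Psmd symbol without being subunits. The other 2 are restricted to single organs. Psma8, the alpha subunit of the testis proteasome, was listed at 0.0479 and 0 FPKM in the control pair, at 0 in the 6 h pair and at 0.127 and 0.0595 FPKM in the 24 h pair. Psmb11, the catalytic subunit of the thymus, was listed at 0 FPKM in all 6 libraries, while Psmb5, which lies close to it on chromosome 14, was at 23.2 FPKM or more in each. Neither passed the filter, and no fold is given for them.

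The values of control and 6 h glands lay on steps of whole reads for 99.8% of 16214 genes, and those steps gave library sizes of 12339893 and 11826335 reads for the control pair and 12128963 and 12577222 reads for the 6 h pair, up to a common factor. The tested proteasome genes had between 124 and 1131 reads each in these 4 libraries, with a median of 601.5, so counting alone gives a coefficient of variation of 8.98% at the fewest reads and 2.97% at the most. The 24 h columns had no such steps, all their values had at most 6 digits, and their depth is unknown, so time and the route by which FPKM were made cannot be told apart. Cdkn1a, the p53 target that halts the cell cycle, stood at 2.36 and 2.13 FPKM in the control pair of libraries, at 39.7 and 44.7 in the 6 h pair and at 35.6 and 36.2 in the 24 h pair. The acinar markers were uneven between libraries. Aqp5 was at 114 to 188 FPKM in all of them, but Dcpp1 was at 3.15 and 6345 FPKM and Smgc at 0 and 251 FPKM in the control pair, and the 5 acinar markers summed to 438 and 7061 FPKM in the control pair, to 3468 and 6910 in the 6 h pair and to 692 and 4673 in the 24 h pair. The tubule marker Klk1b26 reached 21402 and 23310 FPKM at 24 h and was listed at 0.194 FPKM or less in the other 4 libraries. The marker pair for the neighbouring sublingual and parotid glands, Muc19 and Amy1, summed to 18.4 and 3123 FPKM in the control pair, to 163 and 5821 in the 6 h pair and to 1614 and 17181 in the 24 h pair. All 24 h results below rest on comparisons across these 2 forms of values.

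In control glands the proteasome was among the more abundant gene products. The median 20S gene stood at the 93.7 and 93.3 percentile of the 11674 tested genes in the 2 control libraries, and the median 19S gene at the 89.8 and 88.8 percentile. Psmb1, a structural beta subunit, was the highest with 71.8 and 73.3 FPKM, followed by the alpha subunit Psma2 with 68.4 and 66.1 FPKM. The lowest 20S gene was the alpha subunit Psma5 with 23.4 and 22.2 FPKM, so RNA levels differed among the core genes although their products are assembled in equal numbers. Among 19S subunits the ATPase Psmc3 had 56.1 and 50.7 FPKM and the deubiquitinase Psmd14 had 18.1 and 17.01 FPKM, the extremes of that set by mean. The assembly chaperones were lower, with Psmd5 at 15.001 and 14.4, Psmd10 at 8.18 and 7.20 and Psmd9 at 5.00 and 5.29 FPKM. Control libraries differed from each other by a median of 0.093 on the log2 scale over the tested proteasome genes, against 0.165 over all tested genes.

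**Figure D1:**
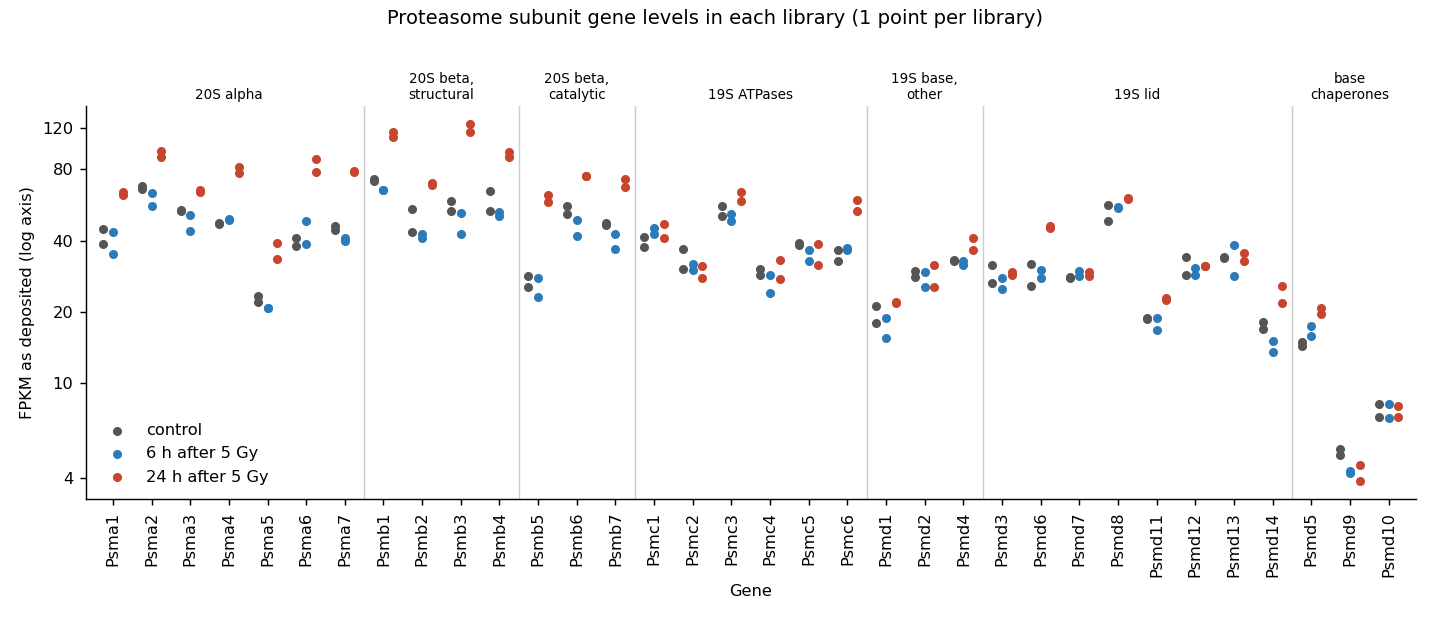
FPKM as deposited (log axis) of the 34 tested proteasome genes, 1 point per library, ordered by place in the complex. The 24 h points stand above the control points for all 14 genes of the 20S core, and the groups lie closer together for most 19S genes.

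The first comparison set glands taken 6 h after 5 Gy against control, and none of the 34 genes passed the test. In limma's moderated test with Benjamini-Hochberg adjustment over all 11674 genes, 0 proteasome genes were called higher and 0 lower, and 0 had an unadjusted p under 0.05. Of all tested genes, 0.694% were called higher and 0.317% lower. The median log2 fold change was -0.17 over the 20S genes, -0.07 over the 19S genes and -0.02 over all tested genes. At 6 h, 10 of 14 core genes were lower than control without overlap of the libraries and 1, Psma4, was higher, where 24.9% of all tested genes were lower and 19.4% higher without overlap. Over all 34 genes 5 were higher and 13 lower without overlap as deposited. After median-of-ratios scaling, which sets the typical gene equal between libraries, the counts stayed 5 and 13, beside 21.5% and 23.1% of all tested genes. Of the 14 core genes 1 was then higher and 8 lower without overlap. On that scale 0 proteasome genes were called, beside 0.728% of all tested genes higher and 0.334% lower, and after removal of the length trend described below 0 were called, beside 0.786% higher and 0.346% lower.

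The largest negative values at 6 h belonged to a lid enzyme and a pair of beta subunits. Psmd14, the lid enzyme that cuts ubiquitin off the substrate, had 13.5 and 15.1 FPKM at 6 h, against 18.1 and 17.01 FPKM in control. Its log2 fold change of -0.28 ± 0.12 (SE) had a limma adjusted p of 0.355 although the groups did not overlap. The structural subunit Psmb3 had 42.6 and 52.3 FPKM at 6 h, against 58.8 and 53.6 FPKM in control (log2 fold change -0.24), again without overlap. The catalytic Psmb6 had 41.8 and 48.9 FPKM at 6 h, against 56.0 and 52.0 FPKM in control (-0.25), with no overlap either. None of these genes passed the test. On the other side Psmd5, a chaperone that holds the ATPases before the base is complete, had 15.9 and 17.6 FPKM at 6 h, against 15.001 and 14.4 FPKM in control (log2 fold change 0.17). The ATPase Psmc1 had 42.7 and 45.2 FPKM at 6 h, against 41.5 and 37.6 FPKM in control (0.15). The alpha subunit Psma6 had 38.6 and 48.3 FPKM at 6 h, against 38.1 and 40.96 FPKM in control (0.13), and these libraries overlapped.

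At 24 h the genes of the catalytic core were higher than in control, and most of the regulatory particle was not called. As deposited, 17 of the 34 tested proteasome genes rose and 0 fell in 24 h glands against control, where 21.0% of all tested genes rose and 4.30% fell. Of these, 13 were among the 14 genes of the 20S core and 3 among the 17 of the 19S particle, and the last was the chaperone Psmd5. The median log2 fold change was 0.63 for the core, 0.15 for the regulatory particle and 0.20 for all tested genes. All 14 core genes were higher at 24 h without overlap of the libraries, as were 9 of 17 regulatory genes and 53.1% of all tested genes. In the other direction stood 1 proteasome gene, Psmd9, beside 13.3% of all tested genes. After median-of-ratios scaling all 14 core genes were still higher without overlap, while of the 17 regulatory genes 3 were higher and 8 lower without overlap. Over the 34 genes that makes 18 higher and 10 lower, beside 31.3% and 30.6% of all tested genes. The share of 19S genes called thus lay near the background, and that of 20S genes above it.

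These counts depend on how the libraries are put on a common scale. Median-of-ratios factors were 1.14 and 1.12 for the 24 h libraries and between 0.922 and 0.955 for the other 4. Dividing by them took the typical tested gene at 24 h against control to a median log2 fold change of -0.0016. After scaling, 7 proteasome genes rose (Psma4, Psma6, Psma7, Psmb1, Psmb3, Psmb5 and Psmc6) and 1 fell (Psmd9), beside 10.1% of all tested genes called higher and 7.57% lower. The scaled medians were 0.39 for the core and -0.09 for the regulatory particle, so the core lay above and the regulatory particle below the typical gene. Summed over genes, scaled 20S FPKM averaged 718 ± 17.5 in control, 659 ± 19.1 at 6 h and 975 ± 8.97 at 24 h, and scaled 19S FPKM 580 ± 27.6, 570 ± 15.2 and 553 ± 32.5 at the same times (SD, n = 2 each). Single libraries also decided counts, and not for these genes alone. In each fit with a library left out, fewer of all tested genes were called higher as well. As deposited, the 17 calls came to 11 when control replicate 1 was dropped, to 8 when 24 h replicate 1 was and to 7 when 24 h replicate 2 was. Control replicate 1 and 24 h replicate 2 differed most in the neighbouring gland markers, and with this pair removed 0 were called by limma and 13 had an unadjusted p under 0.05. In each of these fits a lone library of a group was assumed to vary like the libraries of the groups with 2.

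**Figure D2:**
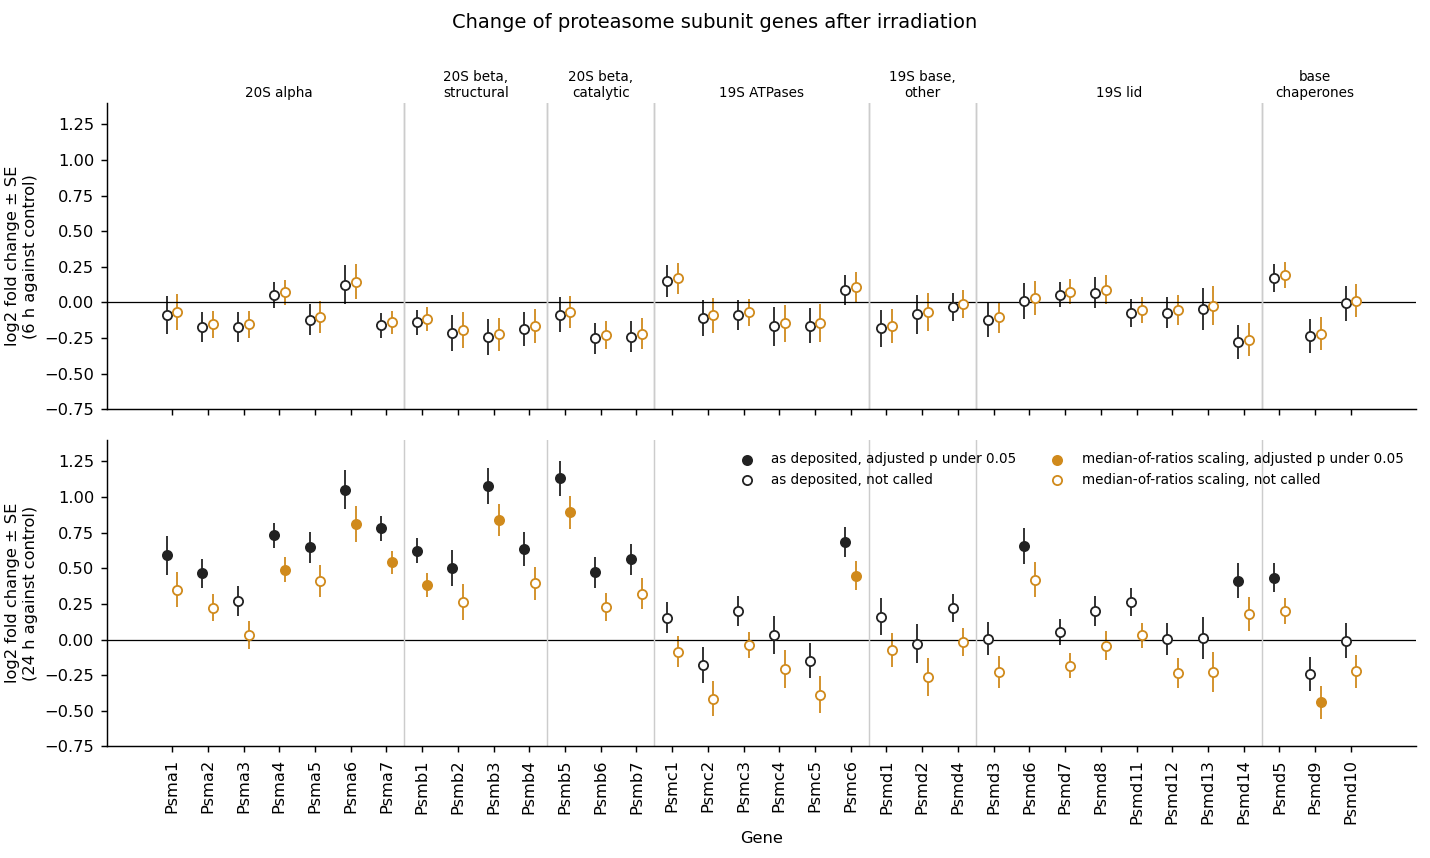
Log2 fold change (± SE) of each tested proteasome gene against control, at 6 h in the upper panel and at 24 h in the lower. Both panels hold the values as deposited (black) and after median-of-ratios scaling (orange), with filled points for adjusted p under 0.05. At 24 h the values of the 20S core reach 1.13 as deposited and 0.89 after scaling, both for Psmb5, and no 6 h point is filled.

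The 3 proteolytic sites of the core moved by unequal amounts at 24 h. Psmb5, the subunit with the chymotrypsin-like activity and the main target of proteasome inhibitor drugs, had 58.2 and 62.7 FPKM at 24 h, against 28.5 and 25.6 FPKM in control. Its log2 fold change of 1.13 ± 0.12 (SE), a 2.19-fold rise, was the largest of all 34 genes, with a limma adjusted p of 0.00173. Scaled FPKM of Psmb5 averaged 53.7 ± 3.55 at 24 h and 28.4 ± 1.96 in control (SD, n = 2 each), a log2 fold change of 0.89 ± 0.11 (SE) with a limma adjusted p of 0.00432. Psmb5 (ENSMUSG00000022193.7) lies on the minus strand at chr14:54614119-54618022 of GRCm38, and its exons also hold the microRNA gene Mir686 on the same strand. Psmb7, the trypsin-like subunit, had 72.7 and 67.5 FPKM at 24 h, against 46.6 and 47.6 FPKM in control, a log2 fold change of 0.56 ± 0.11 (limma adjusted p 0.0137). Psmb6, the caspase-like subunit, had 75.1 and 75.3 FPKM at 24 h, against 56.0 and 52.0 FPKM in control, a log2 fold change of 0.47 ± 0.11 (limma adjusted p 0.026). For all 3 the 24 h libraries stood above both control libraries, but after scaling the limma adjusted p was 0.0982 for Psmb7 and 0.162 for Psmb6. Psmb5 had been the lowest of the 3 in control.

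All 4 structural genes of the beta ring rose at 24 h as deposited, beside 21.0% of all tested genes called higher. Psmb3 (ENSMUSG00000069744.7, plus strand, chr11:97703399-97713500) had 125 and 115 FPKM at 24 h, against 58.8 and 53.6 FPKM in control. The log2 fold change was 1.08 ± 0.13 with a limma adjusted p of 0.00245, and 0.84 ± 0.11 after scaling with a limma adjusted p of 0.00547. Its scaled FPKM averaged 106 ± 4.59 at 24 h and 59.0 ± 3.54 in control (SD, n = 2 each). It became the highest of the core genes at 24 h, a place held by Psmb1 in control. Psmb1, Psmb4 and Psmb2 had log2 fold changes of 0.62, 0.64 and 0.50, and of these Psmb1 was also called after scaling.

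Of the alpha ring, whose N-terminal tails close the entry pore of the core, 6 of 7 genes rose at 24 h as deposited. Called higher among all tested genes were 21.0%. Psma6 (ENSMUSG00000021024.14, plus strand, chr12:55384222-55418454) had 88.6 and 77.8 FPKM at 24 h, against 38.1 and 40.96 FPKM in control. This is a log2 fold change of 1.05 ± 0.14 with a limma adjusted p of 0.00344, and 0.81 ± 0.12 after scaling with a limma adjusted p of 0.00821. Its scaled FPKM averaged 73.8 ± 5.77 at 24 h and 41.6 ± 2.34 in control (SD, n = 2 each). Psma7, Psma4, Psma5, Psma1 and Psma2 had log2 fold changes of 0.78, 0.73, 0.65, 0.59 and 0.46, of which Psma7 and Psma4 were called after scaling as well. Psma3 was the core gene not called, with 64.5 and 65.4 FPKM at 24 h, against 53.5 and 53.7 FPKM in control. Its log2 fold change was 0.27 ± 0.10 with a limma adjusted p of 0.107, although the libraries did not overlap.

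The regulatory particle gave a different count. Beside 21.0% of all tested genes called higher as deposited, 1 of the 6 ATPases rose at 24 h. It was Psmc6 (ENSMUSG00000021832.8, plus strand, chr14:45329788-45349705), with 53.6 and 59.5 FPKM at 24 h, against 36.6 and 32.9 FPKM in control. It rose by 0.69 ± 0.10 on the log2 scale (limma adjusted p 0.00596), and 0.45 ± 0.10 after scaling (limma adjusted p 0.0328). The ATPases with the largest negative values were not called. Psmc2 had 27.9 and 31.2 FPKM at 24 h, against 37.0 and 30.4 FPKM in control, a log2 fold change of -0.18 ± 0.13 with a limma adjusted p of 0.337. Psmc5 had 31.5 and 38.6 FPKM at 24 h, against 39.3 and 38.3 FPKM in control, a log2 fold change of -0.15 ± 0.12 with a limma adjusted p of 0.421. In both the groups overlapped. The ATPases assemble as a ring with 1 copy of each, and their log2 fold changes thus ran from -0.18 to 0.69.

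None of the 3 other base subunits was called at 24 h. The scaffolds Psmd1 and Psmd2 had log2 fold changes of 0.16 and -0.03 and the ubiquitin receptor Psmd4 had 0.22. Of the 8 lid genes, 2 rose, beside 21.0% of all tested genes called higher and 4.30% lower as deposited. Psmd6 had 46.3 and 45.3 FPKM at 24 h, against 25.7 and 31.97 FPKM in control, a log2 fold change of 0.66 ± 0.12 with a limma adjusted p of 0.0137. Psmd14 had 21.8 and 25.8 FPKM at 24 h, against 18.1 and 17.01 FPKM in control, a log2 fold change of 0.41 ± 0.12 with a limma adjusted p of 0.0497, close to the threshold of 0.05. The other 6 lid genes lay between 0.00 (Psmd12) and 0.26 (Psmd11). After scaling no lid gene was called, beside 10.1% of all tested genes higher and 7.57% lower. The limma adjusted p was then 0.0654 for Psmd6 and 0.333 for Psmd14.

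The 3 chaperones of base assembly did not move together. Psmd5 had 20.9 and 19.6 FPKM at 24 h, against 15.001 and 14.4 FPKM in control. It rose by a log2 fold change of 0.43 ± 0.10 (limma adjusted p 0.0255) as deposited, but 0.20 ± 0.09 after scaling had a limma adjusted p of 0.18. Psmd9 had 4.54 and 3.86 FPKM at 24 h, against 5.00 and 5.29 FPKM in control. Its log2 fold change was -0.24 ± 0.12 as deposited (limma adjusted p 0.181), and after scaling it fell by 0.44 ± 0.12 on the log2 scale (limma adjusted p 0.0483). That p is close to the threshold of 0.05. Psmd9 was not called with the length trend removed (limma adjusted p 0.0707), nor with scaling and a replicate block together. Psmd10, also known as the oncoprotein gankyrin, had 8.06 and 7.22 FPKM at 24 h, against 8.18 and 7.20 FPKM in control, and these libraries overlapped.

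Length of the gene model moved with the change at 24 h across the whole table. Among all tested genes, the median log2 fold change at 24 h against control was 0.45 for models of up to 1000 bases and 0.17 for those of over 2000 and up to 3000 bases, while at 6 h it lay between -0.04 and -0.02 in every length class. The 20S genes have short models, 731 to 1591 bases with a median of 1016.5, against 1277 to 3256 bases with a median of 1564 for the 19S genes and a median of 2731 for all tested genes. Within the class of up to 1000 bases, the 7 core genes had a median of 0.64 beside 0.45 for all 1124 genes. Over 1500 and up to 2000 bases, Psma7 had 0.78 and the 9 regulatory genes had a median of 0.20, beside 0.18 for all genes there. Removing the length trend from each library, a step chosen after seeing the data, left 6 of the 17 calls (Psma4, Psma6, Psma7, Psmb3, Psmb5 and Psmc6), with medians of 0.32 for the core and -0.06 for the regulatory particle. The background was then 9.02% of genes called higher and 6.96% lower. The part of the quantification route in the change of the core genes was not tested.

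**Figure D3:**
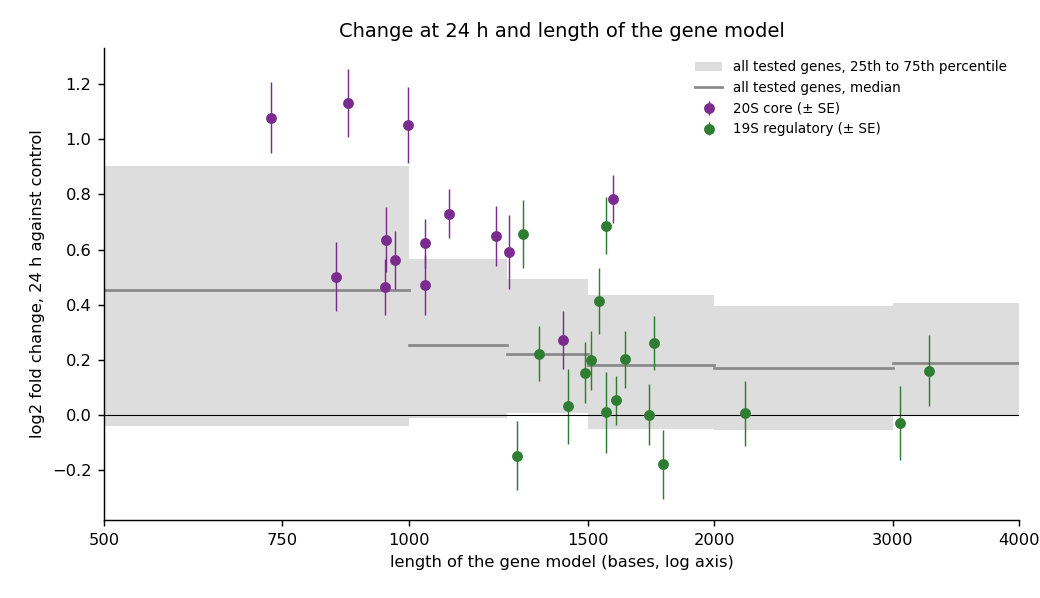
Log2 fold change at 24 h against control, as deposited, by length of the gene model (bases, log axis), with the 20S and 19S genes as points (± SE) and all tested genes as the median line and the band of the 25th to 75th percentile per length class. All 14 core genes stand above the median line of their length class, which is highest for models of up to 1000 bases.

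Markers of other cells also moved with the 24 h group. At 24 h against control, 21.0% of all tested genes were called higher and 4.30% lower as deposited. After scaling the shares were 10.1% higher and 7.57% lower, and the counts below stand beside these shares. Of 5 macrophage markers, 4 rose as deposited and 1, Cd68, after scaling. The list summed to 83.4 and 87.0 FPKM at 24 h, against 47.8 and 45.8 FPKM in control, with none of the 5 at 0. Of 5 lymphocyte markers 3 were tested and 2 rose, as deposited and after scaling, with sums of 20.3 and 26.3 FPKM at 24 h, against 7.18 and 8.43 FPKM in control, and with Ms4a1 at 0 in 1 control library. All 3 epidermis markers rose as deposited and 2 after scaling, with sums of 17.05 and 199 FPKM at 24 h, against 1.29 and 1.56 FPKM in control, where Lor or Krt1 was at 0 in 1 library each. Of 3 skeletal muscle markers 2 were tested and 1, Ckm, rose as deposited and was not called after scaling, with sums of 4.97 and 5.49 FPKM at 24 h, against 2.67 and 2.52 FPKM in control, where Myh4 was at 0 in 1 library. The 3 adipocyte markers were not called and summed to 42.3 and 21.4 FPKM at 24 h, against 1.46 and 53.6 FPKM in control, so the control libraries lay on either side of both 24 h libraries. Of 5 markers of the granular tubules, 4 fell and 1, Klk1b26, rose, as deposited and after scaling, with sums of 36592 and 37826 FPKM at 24 h, against 42477 and 32995 FPKM in control. Their part in the rise of the core genes was not tested.

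The comparison of 24 h with 6 h, which uses the same 24 h libraries, placed all 14 core genes higher. As deposited, 18 proteasome genes rose and 0 fell at 24 h against 6 h, beside 23.4% and 4.31% of all tested genes. They were the 14 core genes and Psmc6, Psmd6, Psmd11 and Psmd14 of the regulatory particle. All 14 core genes and 10 of 17 regulatory genes were higher at 24 h than at 6 h without overlap, beside 56.0% of all tested genes, and 0 of the 34 were lower without overlap, beside 14.7%. After scaling all 14 core genes and 3 regulatory genes were higher without overlap and 6 regulatory genes lower, which over the 34 makes 17 higher and 8 lower, beside 32.6% and 33.4% of all tested genes. The median log2 fold change was 0.77 for the core, 0.13 for the regulatory particle and 0.22 for all tested genes. After scaling 12 rose, 11 of the core and Psmd14, beside 11.7% of genes called higher and 8.35% lower, and with the length trend removed 9 rose, beside 9.88% and 7.91%. The 18 calls came to 11 when 6 h replicate 1 was dropped, to 12 when 24 h replicate 1 was, to 10 when 24 h replicate 2 was and to 3 when control replicate 1 and 24 h replicate 2 both were.

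The genes with the largest difference between the 2 times after irradiation were again of the core. Psmb3 had 125 and 115 FPKM at 24 h, against 42.6 and 52.3 FPKM at 6 h, a log2 fold change of 1.32 ± 0.13 with a limma adjusted p of 0.00107. Psmb5 had 58.2 and 62.7 FPKM at 24 h, against 23.2 and 27.8 FPKM at 6 h, a log2 fold change of 1.22 ± 0.12 with a limma adjusted p of 0.00122. Psma7 had 79.0 and 77.9 FPKM at 24 h, against 39.7 and 41.03 FPKM at 6 h, a log2 fold change of 0.94 ± 0.09 with a limma adjusted p of 9.33e-04. All 3 stood apart from 6 h without overlap and stayed called after scaling, with log2 fold changes of 1.06, 0.96 and 0.68. The largest negative values were close to 0. Psmc2 had 27.9 and 31.2 FPKM at 24 h, against 30.2 and 31.9 FPKM at 6 h, a log2 fold change of -0.07 ± 0.13. Psmd9 and Psmd10 had -0.01 ± 0.12 and -0.00 ± 0.12, and the libraries of all 3 genes overlapped.

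Core and regulatory RNA can be set against each other within a library, which removes any factor common to all genes of that library. Summed over members, 20S FPKM divided by 19S FPKM came to 1.22 and 1.26 in the control pair, to 1.15 and 1.16 in the 6 h pair and to 1.83 and 1.70 in the 24 h pair. Both 24 h ratios lay above the other 4, and both 6 h ratios lay below the 4 others. The summed 20S level was 697 and 668 FPKM in the control pair, 595 and 641 in the 6 h pair and 1102 and 1095 in the 24 h pair. The summed 19S level was 573 and 531 FPKM in the control pair, 516 and 554 in the 6 h pair and 603 and 643 in the 24 h pair, so it was the numerator that differed most at 24 h. Taken between the medians of the members in place of the sums, the ratio was 1.52 and 1.56 in the control pair, 1.48 and 1.58 in the 6 h pair and 2.43 and 2.30 in the 24 h pair. The length trend acts on this ratio too, since the core models are shorter. With 2 libraries a group an exact permutation test cannot go below 0.333, so no test is given.

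**Figure D4:**
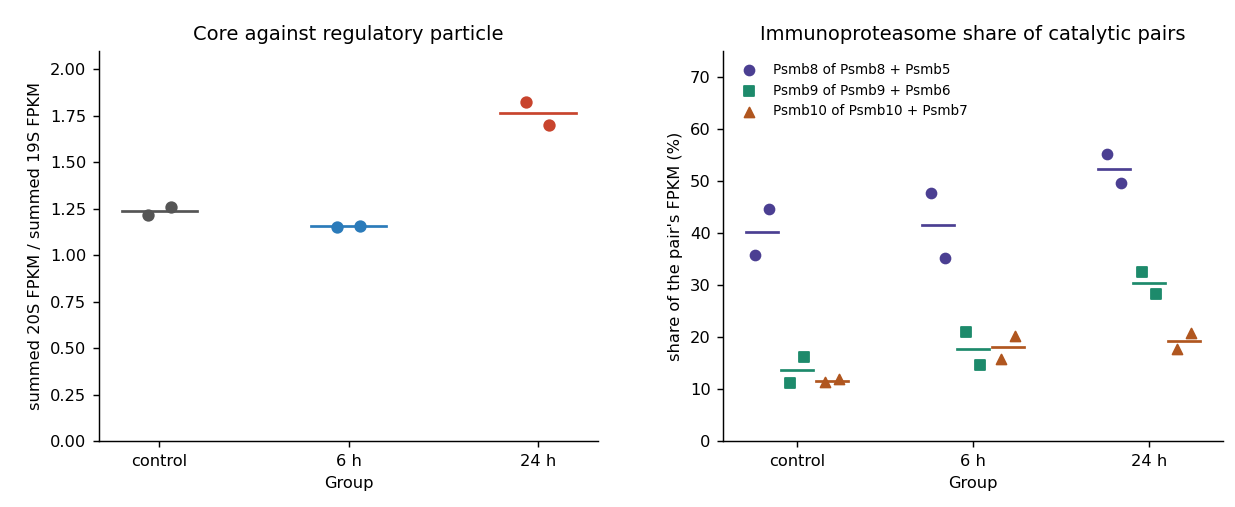
Left, summed 20S FPKM over summed 19S FPKM in each library, and right, the FPKM of each immunoproteasome subunit as a percentage of its own plus that of the constitutive subunit it replaces, 1 point per library with a line at the group mean. The 24 h ratios of 1.83 and 1.70 lie above all others, and the Psmb9 share is highest at 24 h with 32.5% and 28.2%.

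The constitutive catalytic genes rose at 24 h beside their inducible counterparts. Psmb8, Psmb9 and Psmb10 replace Psmb5, Psmb6 and Psmb7 in the immunoproteasome, which is induced by interferon and trims peptides for antigen presentation. Psmb8 had 71.4 and 61.7 FPKM at 24 h, against 15.9 and 20.7 FPKM in control, a log2 fold change of 1.82 ± 0.19 (limma adjusted p 0.00166). Psmb9 had 36.1 and 29.6 FPKM at 24 h, against 7.04 and 10.1 FPKM in control, a log2 fold change of 1.84 ± 0.20 (limma adjusted p 0.00192). Psmb10 had 15.5 and 17.8 FPKM at 24 h, against 5.93 and 6.46 FPKM in control, a log2 fold change of 1.29 ± 0.12 (limma adjusted p 0.00116). All 3 stayed called after scaling. Psmb9 made up 32.5 and 28.2% of the summed FPKM of Psmb9 and Psmb6 at 24 h, against 11.2 and 16.2% in control. Psmb8 made up 55.1 and 49.6% of its pair with Psmb5 at 24 h, against 35.8 and 44.6% in control, and Psmb10 17.6 and 20.8% of its pair with Psmb7, against 11.3 and 11.9% in control. The shares at 6 h were 47.7 and 35.2% for Psmb8, 20.9 and 14.6% for Psmb9 and 15.8 and 20.2% for Psmb10. In each pair the 24 h shares lay above both control shares, and for Psmb10 the 6 h shares did too.

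Other genes around the proteasome were read from lists chosen by function. Of 5 genes for activators and an inhibitor of the core, 3 rose at 24 h as deposited and 2 after scaling, beside 21.0% and 10.1% of all tested genes. The 3 were Psme1 and Psme2, which form the interferon-inducible cap, and Psme3, the nuclear cap. Psme1 had 89.4 and 93.3 FPKM at 24 h, against 48.3 and 48.5 FPKM in control (log2 fold change 0.90, limma adjusted p 0.00126). Psme2 had 77.3 and 70.5 FPKM at 24 h, against 39.6 and 38.3 FPKM in control (0.90, limma adjusted p 0.00159). Psme3 had a log2 fold change of 0.51 and was not called after scaling. Of 5 chaperones that assemble the core, Psmg4 alone rose as deposited and after scaling, by 0.84 and 0.62, and it was not called once the length trend was removed. The naming rule misses 2 genes of 19S subunits. Of these Shfm1, which encodes a small lid protein, had 112 and 102 FPKM at 24 h, against 46.7 and 39.8 FPKM in control. It rose by 1.29 ± 0.14 on the log2 scale (limma adjusted p 0.00155). The other, the ubiquitin receptor Adrm1, had 28.8 and 26.1 FPKM at 24 h, against 29.3 and 26.6 FPKM in control.

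Genes that encode ubiquitin were measured too, and Ubb and Rps27a rose at 24 h. Ubb had 637 and 634 FPKM at 24 h, against 229 and 202 FPKM in control, a log2 fold change of 1.56 ± 0.11 (limma adjusted p 3.61e-04). Rps27a, which encodes ubiquitin fused to a ribosomal protein, had 496 and 468 FPKM at 24 h, against 232 and 259 FPKM in control, a log2 fold change of 0.97 ± 0.11 (limma adjusted p 0.00195). In both genes the libraries did not overlap. The activating enzyme Uba1, which starts the transfer of ubiquitin, had a log2 fold change of 0.28 with a limma adjusted p of 0.0978. None of 4 genes for ubiquitin enzymes and an adaptor bound to the proteasome, and none of 8 for shuttle factors and the p97 unfolding complex, was called as deposited. After scaling 1 of those 8, the shuttle factor Ubqln1, fell by 0.50 ± 0.08 on the log2 scale (limma adjusted p 0.0114). Among all tested genes, 21.0% were called higher and 4.30% lower at 24 h as deposited, and 10.1% and 7.57% after scaling.

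The regulators of proteasome genes gave the single call at 6 h in these lists, 1 of 7 genes. Of all tested genes 0.694% were called higher at 6 h. At 24 h against control 3 of the 7 were called higher and 1 lower as deposited, beside 21.0% and 4.30% of all tested genes. After scaling 2 were called higher and 1 lower, beside 10.1% and 7.57%. Nfe2l2, which encodes NRF2, the oxidative stress factor that binds the same elements as NRF1, had 56.1 and 55.3 FPKM at 6 h, against 28.1 and 25.03 FPKM in control. It rose by 1.04 ± 0.11 on the log2 scale (limma adjusted p 0.015). It had 48.2 and 41.7 FPKM at 24 h, against the same controls, and rose by 0.74 ± 0.11 (limma adjusted p 0.00607). Nfe2l1 itself had 26.1 and 25.04 FPKM at 6 h, against 20.5 and 21.2 FPKM in control, without overlap and without a call (log2 fold change 0.28, limma adjusted p 0.233). Its log2 fold change at 24 h was also 0.28 as deposited, with a limma adjusted p of 0.0652. Scaled FPKM of Nfe2l1 averaged 21.9 in control, 27.3 at 6 h and 22.7 at 24 h, so after scaling 24 h lay near control. Ddi2, the protease that cuts NRF1 free from the membrane, had 8.89 and 8.67 FPKM at 24 h, against 3.48 and 4.32 FPKM in control, a log2 fold change of 1.001 ± 0.154 (limma adjusted p 0.00642). Of the small MAF partners of these factors, Mafg rose by 0.64 and Maff fell by 0.63 on the log2 scale at 24 h as deposited, and only Maff was called after scaling. The comparisons of 6 h and 24 h with control share the control libraries.

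Promoters were searched for antioxidant response elements, which NRF1 and NRF2 bind. RefSeq (GRCm38.p6) gave 31 promoters of 300 bases (250 before and 50 after the start) for 29 of the 36 genes. The element was searched as TGACNNNGC on both strands and is in capitals, also where it is read on the minus strand, as in Psmc6. Shown are 4 of the 5 promoters with a match, those of the catalytic Psmb5 and Psmb6, of Psmc6, the ATPase that rose, and of Psmd9, which fell after scaling. Psmb3, which had the largest rise after that of Psmb5, is shown as a promoter without a match. The promoters of Psma6 and Psma7, which follow in size of the rise among the core genes, held no match either and are not printed.
Psmb5: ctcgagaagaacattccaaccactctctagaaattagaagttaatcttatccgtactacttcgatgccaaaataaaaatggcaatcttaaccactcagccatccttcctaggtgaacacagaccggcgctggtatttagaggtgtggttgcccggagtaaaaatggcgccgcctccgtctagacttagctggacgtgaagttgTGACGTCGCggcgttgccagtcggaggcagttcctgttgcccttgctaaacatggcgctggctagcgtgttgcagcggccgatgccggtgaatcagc
Psmb6: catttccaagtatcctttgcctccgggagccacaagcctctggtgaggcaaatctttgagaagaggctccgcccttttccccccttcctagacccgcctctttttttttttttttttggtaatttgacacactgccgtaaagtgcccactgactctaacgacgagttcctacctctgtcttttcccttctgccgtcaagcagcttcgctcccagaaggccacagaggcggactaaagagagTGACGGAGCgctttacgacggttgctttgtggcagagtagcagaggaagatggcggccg
Psmb3: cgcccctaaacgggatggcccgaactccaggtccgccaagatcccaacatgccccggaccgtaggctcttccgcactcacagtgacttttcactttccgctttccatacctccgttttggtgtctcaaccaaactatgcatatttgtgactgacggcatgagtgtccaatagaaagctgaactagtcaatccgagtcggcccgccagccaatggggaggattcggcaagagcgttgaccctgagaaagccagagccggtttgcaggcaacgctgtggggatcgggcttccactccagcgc
Psmc6: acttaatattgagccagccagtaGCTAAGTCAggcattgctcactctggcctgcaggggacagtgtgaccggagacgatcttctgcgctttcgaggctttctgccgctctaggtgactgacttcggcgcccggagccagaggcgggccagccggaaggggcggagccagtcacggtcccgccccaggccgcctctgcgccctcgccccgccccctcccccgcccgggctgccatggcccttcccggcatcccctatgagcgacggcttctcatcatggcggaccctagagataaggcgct
Psmd9: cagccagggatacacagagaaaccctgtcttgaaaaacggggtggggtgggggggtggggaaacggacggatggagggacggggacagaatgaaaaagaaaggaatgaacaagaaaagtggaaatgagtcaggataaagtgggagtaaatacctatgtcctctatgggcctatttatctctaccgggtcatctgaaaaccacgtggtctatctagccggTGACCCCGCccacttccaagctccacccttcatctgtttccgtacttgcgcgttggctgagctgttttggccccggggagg
The windows are chr14:54617946-54618245 on the minus strand for Psmb5 and, on the plus strand, chr11:70525107-70525406 for Psmb6, chr11:97703184-97703483 for Psmb3, chr14:45329574-45329873 for Psmc6 and chr5:123227940-123228239 for Psmd9.

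The match began at base -47 from the start in Psmb5, at -9 in Psmb6, at -31 in Psmd9 and at -227 in Psmc6, and a further one lay in the promoter of the lid gene Psmd12. That is 5 of 31 proteasome promoters (16.1%), beside 12.4% of all 32851 promoters of the same length. Both catalytic genes with a promoter at hand, Psmb5 and Psmb6, held a match, and none of the 8 promoters of alpha ring genes did. CCAAT, the box bound by the factor NF-Y, occurred on either strand in 12 of 31 proteasome promoters (38.7%) and in 37.4% of all promoters, and 2 copies stood in Psmb3. Genes with a match thus were the one with the largest rise as deposited (Psmb5), those with smaller rises (Psmc6 and Psmb6) and the gene that fell after scaling (Psmd9). The remaining one, Psmd12, was not called, with a log2 fold change of 0.0014 at 24 h against control as deposited. A match of letters is a description of the window and does not show binding.

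Reads of overlapping genes limit some of these values. Exons of 9 of the 36 genes overlap another annotated gene (Psma4, Psma5, Psmb5, Psmb7, Psmc3, Psmd1, Psmd3, Psmd9 and Psmd13), on the opposite strand in all but Psmb5 and, for 1 of its 2 partners, Psmd1. Whether reads were assigned by strand is not given in the sources used here, so a share of their FPKM may belong to the partner.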

How the data were processed

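RNA sequencing of mouse submandibular gland was deposited by the authors as 1 table of FPKM for 6 libraries. Per the submitters' processing notes, TopHat2 2.1.0 and Cufflinks 2.2.1 were used with mm10. Of 24421 entries, 27 with a symbol turned into a date were left out. Values were transformed as log2(FPKM + 1), which understates changes of low genes, and 11674 genes that averaged 1 FPKM or more were kept. limma 3.58.1 in R 4.3.3 fitted 1 mean per group over all 6 libraries with an intensity trend (3 residual degrees of freedom), with two-sided p-values adjusted by Benjamini-Hochberg within each comparison and called under 0.05. The SE from the fit follows each ± of a log2 fold change. The fit was tested on simulated data.

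Values were analysed as deposited and after division by median-of-ratios factors (0.955 and 0.947 in control, 0.922 and 0.954 at 6 h, 1.14 and 1.12 at 24 h). Alternatives were quantile normalization, a pseudocount of 0.1, no filter, the 2 groups compared alone, a replicate block, each library left out and, chosen after seeing the data, removal of a length trend in each library. Whole reads and model lengths were recovered from the steps of control and 6 h values (relative tolerance 1e-09), with a length for 99.1% of tested genes. Positions are from GENCODE M21 (GRCm38, matched by symbol) and promoters from RefSeq (GRCm38.p6). Values in every library are given for the catalytic genes, for the 3 largest log2 fold changes in each direction per comparison and for genes under the filter. Others are given by counts, by range or, where called, by name. Of the other lists up to 3 genes with the smallest p at 24 h are named, with the immunoproteasome, and some genes that this rule picks are not reported here. Nfe2l1, Maff, Adrm1, Uba1, Ubqln1, Psma3 and a few single values were named after their values were seen. Members and lists were chosen with earlier results of these data known.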

Additional observations from a re-analysis of the deposited data

Results flagged for a closer look

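For 5 genes of the core named above, the change at 24 h differed from the change at 6 h. This is limma's test of the difference itself, the comparison of 24 h with 6 h, in which all 14 core genes were called as deposited. Psmb3, Psmb5 and Psma7 are listed because their log2 fold changes were the largest in that same comparison, and Psmb5, Psmb6 and Psmb7 as the catalytic genes. The log2 difference was 1.32 for Psmb3, 1.22 for Psmb5, 0.94 for Psma7, 0.80 for Psmb7 and 0.72 for Psmb6, each with 24 h libraries above both 6 h libraries. All 5 also passed after median-of-ratios scaling, with limma adjusted p of 0.00213, 0.0031, 0.00316, 0.0207 and 0.0241. With the length trend removed, Psmb7 had a limma adjusted p of 0.0587 and the other 4 passed. Time and quantification route cannot be told apart here.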

How the results depend on the processing

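The count of proteasome genes called higher at 24 h against control, 17 as deposited, was 7 after median-of-ratios scaling, 5 after quantile normalization, 6 with the length trend removed and 7 with scaling and the replicate block together. It ranged between 7 and 15 with 1 library left out and was 0 without control replicate 1 and 24 h replicate 2. The count called lower, 0 as deposited, was 1 after scaling and 1 after quantile normalization, Psmd9 in both. At 24 h against 6 h the 18 calls became 6 after quantile normalization, 9 with the length trend removed, 10 to 17 with 1 library left out and 3 without that pair of libraries. The replicate block alone gave 16 and 17 calls, losing Psmd14 and Psmd11. Same-numbered libraries deviated together (r of 0.47 for control with 6 h, 0.31 for control with 24 h and 0.17 for 6 h with 24 h), but only 2 numbers exist and the labels do not pair them. The core to regulatory ratio was 1.54, 1.53 and 2.36 in control, 6 h and 24 h when medians over members replaced sums. Among the other lists, the genes called lower were 2 after scaling against 1 as deposited at 24 h against control, and 4 against 1 at 24 h against 6 h. The share of all tested genes called lower moved the same way with scaling. It was 7.57% after scaling against 4.30% as deposited at 24 h against control, and 8.35% against 4.31% at 24 h against 6 h. Signs turned for some genes that were not called. With 1 library left out, the 6 h log2 fold change ranged from -0.0324 to 0.284 for Psma6 and from -0.212 to 0.042 for Psmb5. At 24 h against 6 h it ranged from -0.147 to 0.00746 for Psmc2, from -0.101 to 0.0866 for Psmd9 and from -0.091 to 0.0851 for Psmd10, and without control replicate 1 and 24 h replicate 2 it was 0.0866 for Psmd9 and 0.0677 for Psmd10. The cause was not tested. No proteasome gene was called at 6 h by limma under any of these alternatives. Depth limits control and 6 h values through 124 to 1131 reads per gene, and the depth at 24 h is unknown.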
